A study of Mus musculus with 4 samples.

Results

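MHC class II genes encode the machinery that presents extracellular antigen to CD4+ T cells. Expression of 10 of them was compared in *in vitro* MDSCs, immature myeloid cells grown from mouse BM: the classical chains *H2-Aa*, *H2-Ab1* and *H2-Eb1*, the nonclassical chains *H2-DMa*, *H2-DMb1*, *H2-DMb2*, *H2-Oa* and *H2-Ob*, the invariant chain *Cd74* and the transactivator *Ciita*. They were taken by gene symbol, with earlier results of these data known, and all 10 had a row among the 24346 gene names of each library. BM cells of female C57BL/6J mice aged 6 to 8 weeks were cultured for 4 days with 40 ng/ml GM-CSF in all cultures. The 2 G-CSF cultures also received 5 ng/ml G-CSF, and the 2 Control cultures received none. No sorting of the cells is described for these libraries, and in bulk RNA fewer cells of a type and less RNA per cell cannot be told apart. The study calls the 2 libraries of a group biological replicates, but whether they came from separate mice is not given in the sources used here, so the p-values measure only the spread between these libraries.

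On the cell surface, an alpha and a beta chain form the classical class II molecule that holds the peptide. The invariant chain fills the groove of newly made molecules and guides them to endosomes, where H2-DM exchanges its remnant for antigenic peptide and H2-O restrains H2-DM. CIITA does not bind DNA itself. It is recruited by RFX, CREB and NF-Y proteins that sit on the X and Y boxes of class II promoters, and it is the factor whose presence largely sets whether a cell transcribes these genes. Dendritic cells, macrophages and B cells are the main cells that express them. C57BL/6 mice carry a defective *Ea* gene, so that they make no I-E molecule and the chain of *H2-Eb1* lacks its partner.

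X and Y boxes in promoters of the members are shown first, because *Ciita* and the genes it serves were measured in the same libraries. RefSeq promoter windows (GRCm38.p6, 250 bases before and 50 after each start site) were at hand for 7 of the members, *H2-Aa*, *H2-Eb1*, *H2-DMa*, *H2-DMb1*, *H2-DMb2*, *H2-Oa* and *H2-Ob*, with 8 start sites. The Y box was searched as ATTGG and the X box as AACNNATG, a part of its consensus, on both strands. These letters were chosen after the sequences had been read, and the motifs do not overlap where both are shown. The following stretches of chromosome 17 run 5′ to 3′ on the strand of the gene, from 50 bases before the Y box to 10 bases after it, with both motifs in capitals.
*H2-Eb1* (chr17:34305758-34305822, plus strand): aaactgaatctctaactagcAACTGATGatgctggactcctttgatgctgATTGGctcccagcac
*H2-DMb1* (chr17:34153080-34153144, plus strand): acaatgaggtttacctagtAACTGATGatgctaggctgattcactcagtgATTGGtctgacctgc
*H2-DMb2* (chr17:34145109-34145173, plus strand): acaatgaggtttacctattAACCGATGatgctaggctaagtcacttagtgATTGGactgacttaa
*H2-Ob* (chr17:34238798-34238862, plus strand): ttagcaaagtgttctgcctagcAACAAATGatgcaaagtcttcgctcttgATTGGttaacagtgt
*H2-Aa* (chr17:34287857-34287921, minus strand): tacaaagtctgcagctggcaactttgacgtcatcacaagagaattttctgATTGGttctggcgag
*H2-Oa* (chr17:34092286-34092350, plus strand): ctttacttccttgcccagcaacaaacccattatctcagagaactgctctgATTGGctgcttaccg

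The X motif lay 23 bases before the Y box in *H2-DMb1* and *H2-DMb2*, 22 in *H2-Eb1* and 20 in *H2-Ob*. *H2-Aa* and *H2-Oa* had the Y box, and the letters of the X motif searched here were not in their windows. All 7 genes held a Y box in at least 1 window, and 37.4% of the 32851 promoter windows of the genome table did. An X motif was found for 4 of the 7 genes and in 8.86% of all windows. An X motif followed within 8 to 40 bases by a Y box on the same strand was found for the same 4 genes and in 0.271% of all windows, on either strand. *H2-DMa* had a Y box only at 1 of its 2 start sites, 198 bases before it. A match is a description of the letters and not a measured binding site. The letters and the spacing were set after these promoters had been read, so the counts for the 7 genes are not a test.

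**Figure D1:**
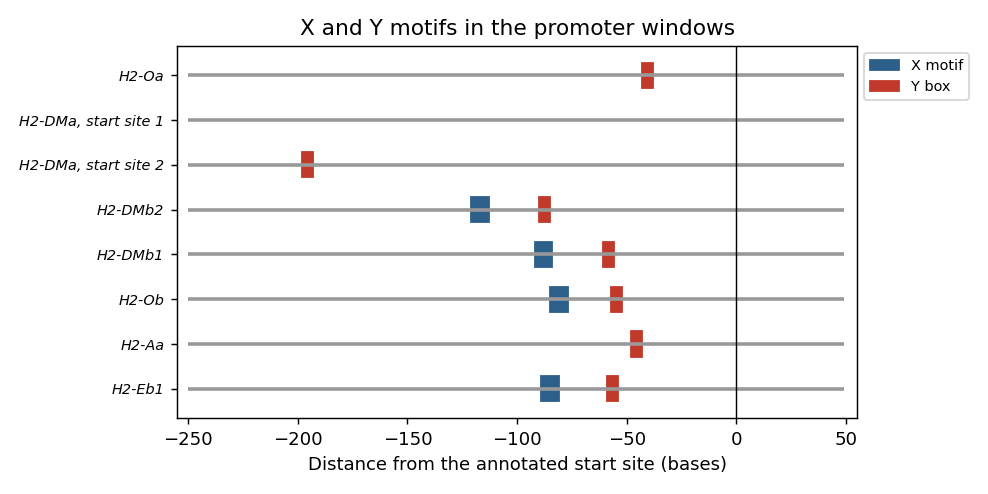
Positions of the X motif (blue) and the Y box (red) in the 8 promoter windows of 7 members, in bases from the annotated start site (vertical line). In *H2-DMb1*, *H2-DMb2*, *H2-Ob* and *H2-Eb1* the X motif stands 20 to 23 bases before the Y box, and in *H2-DMa* the Y box is in only 1 of 2 windows.

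The classical chains were lower with G-CSF by about the same factor. *H2-Aa*, the alpha chain of I-A, stood at 557 and 479 FPKM in Control and at 292 and 233 FPKM with G-CSF. FPKM are fragments scaled to transcript length and to sequencing depth, so that levels can be compared between genes. Its partner *H2-Ab1* stood at 474 and 396 FPKM in Control and at 229 and 182 FPKM with G-CSF. *H2-Eb1* stood at 276 and 222 FPKM in Control and at 134 and 108 FPKM with G-CSF. None of the 3 genes had a G-CSF value as high as its lower Control value. The log2 fold changes of G-CSF against Control, on log2(FPKM + 0.1), were -0.99 for *H2-Aa* (standard error 0.116, adjusted p = 0.00487 from limma), -1.09 for *H2-Ab1* (standard error 0.123, adjusted p = 0.00447) and -1.04 for *H2-Eb1* (standard error 0.128, adjusted p = 0.00523). The 95% confidence intervals of these changes overlapped, running from -1.26 to -0.71, from -1.38 to -0.79 and from -1.35 to -0.73. The ratio of *H2-Aa* to *H2-Ab1* FPKM was 1.17 and 1.21 in Control and 1.28 in each G-CSF library, and the ratio of *H2-Eb1* to *H2-Ab1* was between 0.561 and 0.592 in all 4 libraries.

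*Cd74*, the invariant chain, was the most abundant member. Its level was 2016 and 1740.15 FPKM in Control (mean 1878 ± 195, SD, n = 2). The G-CSF libraries had 1153 and 940 FPKM (mean 1047 ± 150, SD, n = 2). The groups did not overlap, and *Cd74* fell by 0.85 on the log2 scale (standard error 0.112, adjusted p = 0.00572 in limma). Its estimated reads were 15874 or more per library. Relative to the summed classical chains, *Cd74* FPKM was 1.54 and 1.59 times as high in Control and 1.76 and 1.80 times as high with G-CSF.

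*Ciita* was lower by a similar factor at a far lower level. It stood at 16.2 and 12.4 FPKM in Control and at 8.97 and 6.22 FPKM with G-CSF, again without overlap. Its log2 fold change was -0.91 (standard error 0.193, 95% confidence interval -1.38 to -0.45, adjusted p = 0.0202 from limma). It had 887 and 718 estimated reads in the Control libraries, against 456 and 397 in the others. *Ciita* has several alternative promoters that are used in different cell types, and the values per gene do not separate them. Without Control replicate 1, its change was -0.72 and its adjusted p 0.0533.

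**Figure D2:**
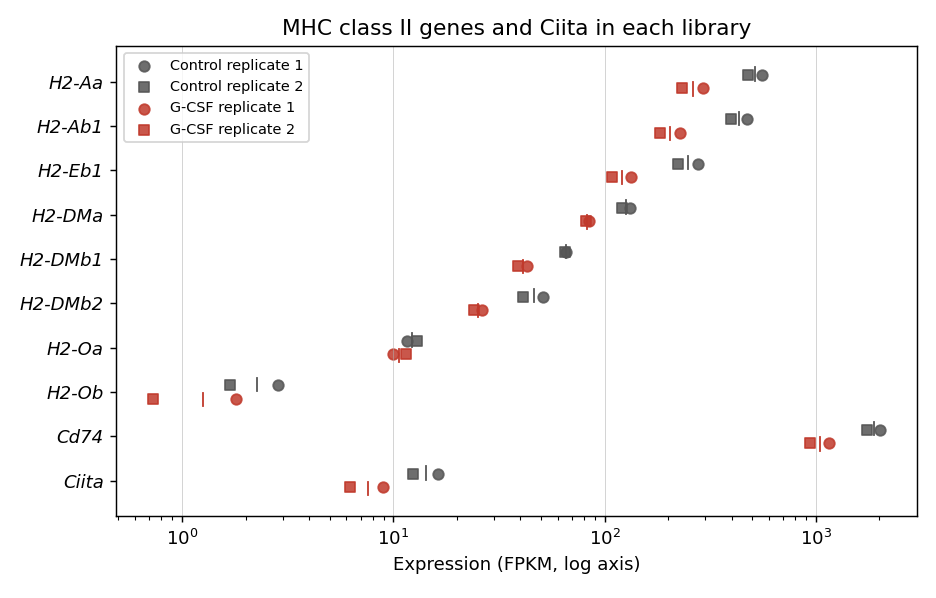
Expression of each member in the 4 libraries, in FPKM on a log axis, with Control in grey and G-CSF in red, replicate 1 as circles, replicate 2 as squares and group means as vertical bars. The G-CSF symbols lie left of the Control symbols in 9 members, and in *H2-Ob* the groups overlap.

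The H2-DM chains fell too. *H2-DMa*, the alpha chain of the peptide exchanger, stood at 131 and 120.4 FPKM in Control and at 84.3 and 81.7 FPKM with G-CSF. *H2-DMb1* stood at 66.0 and 65.2 FPKM in Control and at 43.0 and 39.1 FPKM with G-CSF, and *H2-DMb2* at 51.2 and 41.2 FPKM and at 26.4 and 24.0 FPKM. The groups of all 3 genes were apart. *H2-DMa* fell by 0.60 on the log2 scale (standard error 0.055, adjusted p = 0.00285 from limma), *H2-DMb1* by 0.68 (standard error 0.0585, adjusted p = 0.00245) and *H2-DMb2* by 0.87 (standard error 0.106, adjusted p = 0.00523). The 95% confidence intervals were -0.73 to -0.47, -0.82 to -0.54 and -1.12 to -0.61. The difference in change between these genes and the classical chains was not tested. *H2-DMb1* and *H2-DMb2* are neighbouring copies, and 15.8% of the 75-base windows of *H2-DMb1* transcripts also occur in *H2-DMb2*, so reads from these stretches could be assigned to either gene. Of the *H2-DMb2* windows, 16.2% occur in another gene, and of the *H2-DMa* windows 7.46% occur in *Brd2*, whose annotated span overlaps that of *H2-DMa*.

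The H2-O chains did not pass the test. *H2-Oa* stood at 11.6 and 12.99 FPKM in Control and at 9.93 and 11.5 FPKM with G-CSF, with 108 to 162 estimated reads per library. Both G-CSF values were below both Control values by a small margin, and the log2 fold change of -0.20 had a 95% confidence interval from -0.44 to 0.04 (standard error 0.0998, adjusted p = 0.188 from limma). This interval did not reach those of the 3 classical chains, the 3 H2-DM chains, *Cd74* or *Ciita*, although the difference itself was not tested. Of the windows of *H2-Oa*, 11.8% are shared with the overlapping *BC051537*, which stood at 0.358 FPKM or less. *H2-Ob* was the lowest member, at 2.85 and 1.69 FPKM in Control and 1.79 and 0.728 FPKM with G-CSF, on 94, 59, 55 and 28 estimated reads. Its groups overlapped, and its log2 fold change of -0.87 had an interval from -1.87 to 0.12 (standard error 0.414, adjusted p = 0.169). Without G-CSF replicate 1, the change of *H2-Ob* was -1.47 and passed the test (adjusted p = 0.0317), and without G-CSF replicate 2 it was -0.28 (adjusted p = 0.569).

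The balance of the peptide exchanger and its restrainer was set out as a ratio. The FPKM of the summed H2-DM chains was 17.2 and 15.5 times that of the summed H2-O chains in Control and 13.1 and 11.9 times with G-CSF. *H2-Oa* FPKM was 4.08 and 7.69 times that of *H2-Ob* in Control and 5.54 and 15.8 times with G-CSF. The H2-O sum is therefore mostly *H2-Oa*, and its ratio does not describe the scarcer *H2-Ob*. The change of the ratio was not tested. In Control, *Ciita* (mean 14.3 FPKM) and *H2-Oa* (mean 12.3 FPKM) were neighbours in the order of levels and their values overlapped. With G-CSF, both *Ciita* values lay below both *H2-Oa* values. The order of the other 8 members, from *Cd74* through *H2-Aa*, *H2-Ab1*, *H2-Eb1*, *H2-DMa*, *H2-DMb1* and *H2-DMb2* down to *H2-Ob*, was the same in every library.

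In all, 8 of the 10 members passed an adjusted p of 0.05 and all 8 were lower with G-CSF, where 11.4% of the 11956 genes tested were lower at this threshold and 24.1% passed in either direction. A fold change over 2 in addition, the threshold of the study, was passed by *H2-Ab1* and *H2-Eb1*, 2 of the 10, where 0.895% of all genes were lower by this rule. *H2-Aa*, with 1.98-fold, stood just short of it. Both G-CSF values lay below both Control values in 9 of the 10 members, against 32.6% of the genes tested. The median log2 fold change was -0.87 over the members and 0.00 over all genes tested. All 10 members passed the filter on low reads. The adjusted p-values rest on limma's estimate of the spread from genes of similar level. Without this trend, 0 of the 10 members passed in limma, their adjusted p-values ran from 0.0503 to 0.285, and 8 had an unadjusted p under 0.05. Over all 11956 genes tested, 108 then passed an adjusted p of 0.05 in either direction, against 2876 with the trend. With limma's voom on estimated reads, 8 members passed, and 3437 of the 11956 genes tested passed in either direction.

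**Figure D3:**
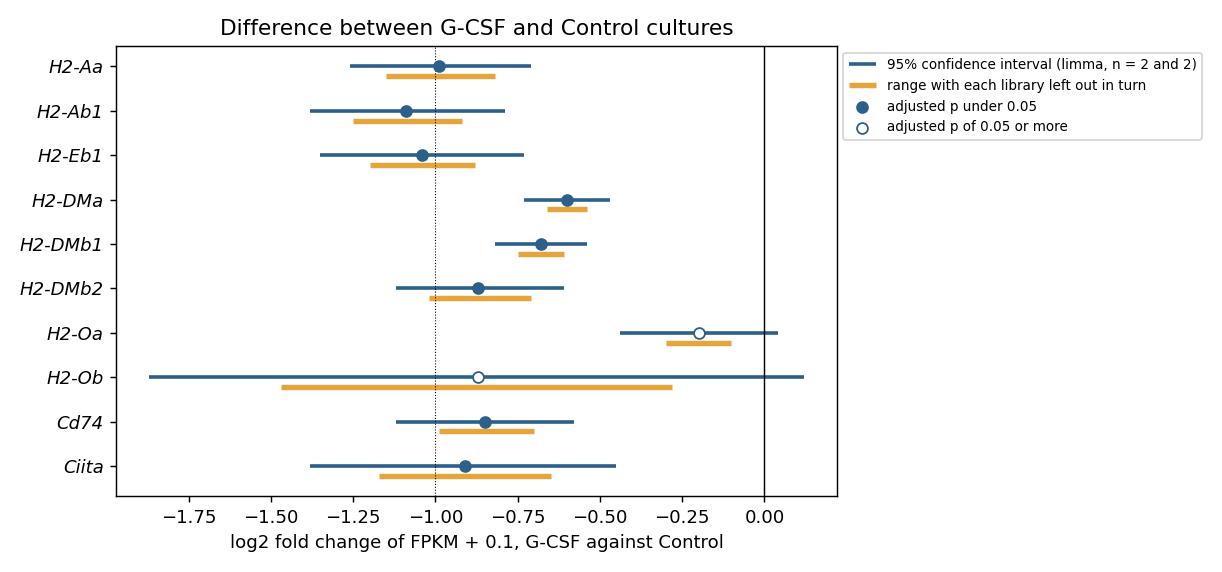
log2 fold changes of the members, G-CSF against Control, with 95% confidence intervals (blue lines) and the range when each library was left out in turn (orange lines). Filled points have an adjusted p under 0.05, open points (*H2-Oa* and *H2-Ob*) do not, and the dotted line marks a fold change of 2.

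The members together took 0.537% and 0.482% of all FPKM in the Control libraries and 0.309% and 0.252% in the G-CSF libraries. Their summed level was 3347 ± 362 FPKM in Control (SD, n = 2) against 1805 ± 251 FPKM in the G-CSF group (SD, n = 2), which is a ratio of 0.539. The ratio was 0.49 for the classical chains, 0.557 for *Cd74*, 0.628 for the H2-DM chains and 0.821 for the H2-O chains. These sums are given as a description, with no test. The libraries with the number 1 were above those with the number 2 in 9 members in Control and in 9 with G-CSF, *H2-Oa* being the exception in both. Among all genes tested, 27.2% were above in both groups.

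**Figure D4:**
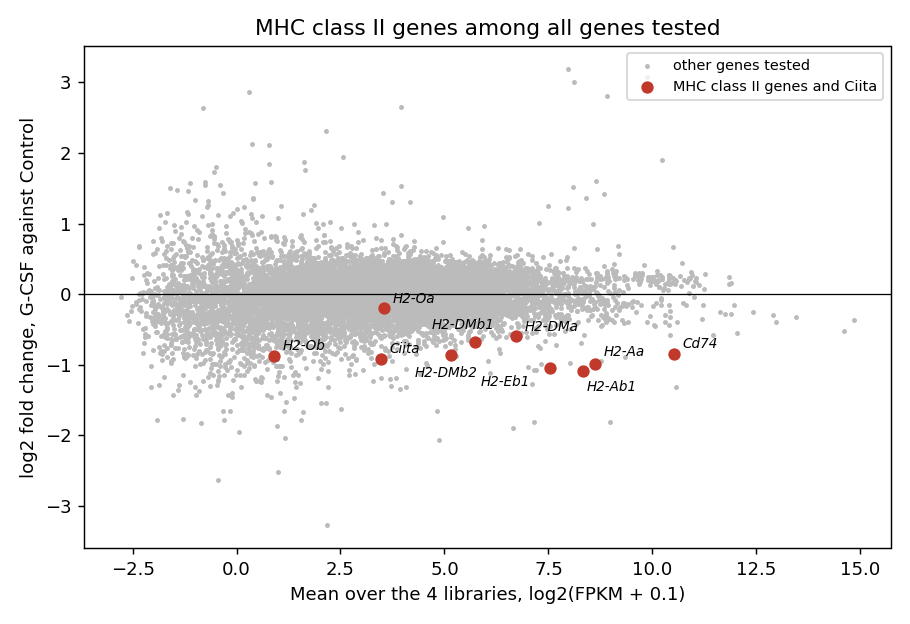
Mean level over the 4 libraries, as log2(FPKM + 0.1), against the log2 fold change of G-CSF against Control, for the 11956 genes tested (grey) and the members (red). All 10 members lie below 0, at levels from those of *H2-Ob* to those of *Cd74*.

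Other class II rows were few. *H2-Eb2*, a further beta chain gene, stood at 1.98 and 1.69 FPKM in Control and at 1.44 and 0.908 FPKM with G-CSF. Both of its G-CSF values were lower, with a log2 fold change of -0.63 that did not pass (standard error 0.237, adjusted p = 0.10 from limma). *H2-Ea-ps*, the row for the alpha chain gene that is defective in this strain, was listed at 0 in every library.

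Apart from *Cd74* on chromosome 18 and *Ciita* on chromosome 16 (10480059 to 10528418 of GRCm38), the members lie within 224335 bases of chromosome 17, from 34092340 to 34316674. The order along the chromosome is *H2-Oa*, *H2-DMa*, *H2-DMb2*, *H2-DMb1*, *H2-Ob*, *H2-Ab1*, *H2-Aa* and *H2-Eb1*, and only *H2-Aa* is on the minus strand. In the same segment lie genes with other roles, of which 5 were tested: *Brd2*, a chromatin reader, *Psmb8* and *Psmb9* of the immunoproteasome, and *Tap1* and *Tap2*, which carry peptides to MHC class I. Of these, *Psmb9* (log2 fold change -0.41, adjusted p = 0.0415) and *Tap1* (-0.32, adjusted p = 0.0449) fell and none rose. Their changes ran from -0.41 to 0.02 with a median of -0.12, and those of the 8 members in the segment had a median of -0.87. *Brd2* (34112023 to 34122634), which overlaps the start of *H2-DMa* (34119541 to 34139101), stood at 70.0 and 70.5 FPKM in Control and at 69.0 and 73.2 FPKM with G-CSF.

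Of the RFX genes, whose proteins bind DNA and recruit CIITA, none passed the test. *Rfx5* stood at 5.08 and 5.47 FPKM in Control and at 5.02 and 4.56 FPKM with G-CSF (log2 fold change -0.14, adjusted p = 0.389). The other RFX subunits were at -0.03 (*Rfxap*, adjusted p = 0.806) and -0.02 (*Rfxank*, adjusted p = 0.91). Of the 14 genes in the list of RFX, NF-Y, CREB and coactivator genes, all were tested, 1 rose, 0 fell and 13 did not pass, with a median of -0.03. The gene that rose was *Carm1*, an arginine methyltransferase (log2 fold change 0.41, adjusted p = 0.00995).

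Among 20 genes of factors known to act on *Ciita* transcription, 18 were tested, 7 fell, 0 rose and 11 did not pass. *Irf4*, an interferon regulatory factor of dendritic and B cells, fell from 31.2 and 28.2 FPKM to 21.5 and 19.5 FPKM (log2 fold change -0.53, standard error 0.0764, adjusted p = 0.00709). *Socs1*, an inhibitor of cytokine signalling, fell by 0.47 on the log2 scale (adjusted p = 0.00524) and *Jak2* by 0.38 (adjusted p = 0.00861). *Irf2* fell by 0.23 (adjusted p = 0.0238). *Spi1*, which encodes PU.1, had 361 and 372 FPKM in Control and 306 and 343 FPKM with G-CSF and did not pass (log2 fold change -0.18, adjusted p = 0.082). *Irf8* (-0.05, adjusted p = 0.813), *Irf1* (-0.10, adjusted p = 0.325) and *Prdm1*, which encodes the *Ciita* repressor BLIMP1 (-0.51, adjusted p = 0.0614), did not pass either. *Ifng*, the classical inducer of *Ciita*, was listed at 0 in all 4 libraries.

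Genes that prepare antigen for class II, or that control the turnover of class II molecules, fell in part. All 20 genes of this list with a row were tested, 12 fell, 0 rose and 8 did not pass, with a median of -0.22. *Ctss*, the protease that trims the invariant chain in dendritic cells, fell from 714 and 751 FPKM to 553 and 547 FPKM (log2 fold change -0.41, adjusted p = 0.00487). *Ifi30*, a thiol reductase of the endosome, fell by 0.43 (adjusted p = 0.00524), *Lgmn*, an asparaginyl protease, by 0.30 (adjusted p = 0.00967) and *Ctsh*, a cathepsin, by 0.48 (adjusted p = 0.00394). *Cd83*, which opposes the ubiquitination of class II, fell by 0.75 (adjusted p = 0.0161), and *Cd82*, a tetraspanin, by 0.40 (adjusted p = 0.0107). *March1*, a gene of a ubiquitin ligase for class II, fell as well, by 0.34 (adjusted p = 0.0113 in limma). Its relative *March8* was at -0.04 and did not pass (adjusted p = 0.671 in limma). *Cst3*, a secreted inhibitor of cysteine proteases, fell by 0.58 (adjusted p = 0.00889). *Ctsl* stood at 91.3 and 104.6 FPKM in Control and at 107 and 112 FPKM with G-CSF (log2 fold change 0.17, adjusted p = 0.129).

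In the T cell costimulation list, 8 of 9 genes were tested, 5 fell, 0 rose and 3 did not pass, with a median of -0.41. The list also holds *Cd274* and *Pdcd1lg2*, which encode the inhibitory ligands PD-L1 and PD-L2, and both are among the 5 that fell. *Cd40*, the receptor for T cell help, had 3.11 and 2.89 FPKM in Control and 1.76 and 1.35 FPKM with G-CSF (log2 fold change -0.92, adjusted p = 0.0139). *Cd80* fell by 0.49 (adjusted p = 0.00423), and *Cd86*, its relative, was at -0.47 and did not pass (adjusted p = 0.0587). *Cd274* fell by 0.30 (adjusted p = 0.0127), *Pdcd1lg2* by 0.55 (adjusted p = 0.0242) and *Icosl*, a stimulatory ligand, by 0.34 (adjusted p = 0.019).

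The genes of MHC class I moved in both directions. All 23 were tested, of which 8 fell, 3 rose and 12 did not pass, with a median of -0.12. *H2-D1*, a classical heavy chain, fell by 0.39 (adjusted p = 0.00545), *H2-T23* by 0.50 (adjusted p = 0.00699) and *B2m*, the light chain, by 0.25 (adjusted p = 0.0207). *H2-K1* had 318 and 283 FPKM in Control and 284 and 272 FPKM with G-CSF (log2 fold change -0.11, adjusted p = 0.253). The chaperones *Calr* (0.27, adjusted p = 0.0127), *Canx* (0.19, adjusted p = 0.0197) and *Pdia3* (0.19, adjusted p = 0.024) rose. *Nlrc5*, which does for class I genes what *Ciita* does for class II, was at 3.65 and 3.87 FPKM in Control and at 3.34 and 3.02 FPKM with G-CSF (log2 fold change -0.24, adjusted p = 0.192).

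**Figure D5:**
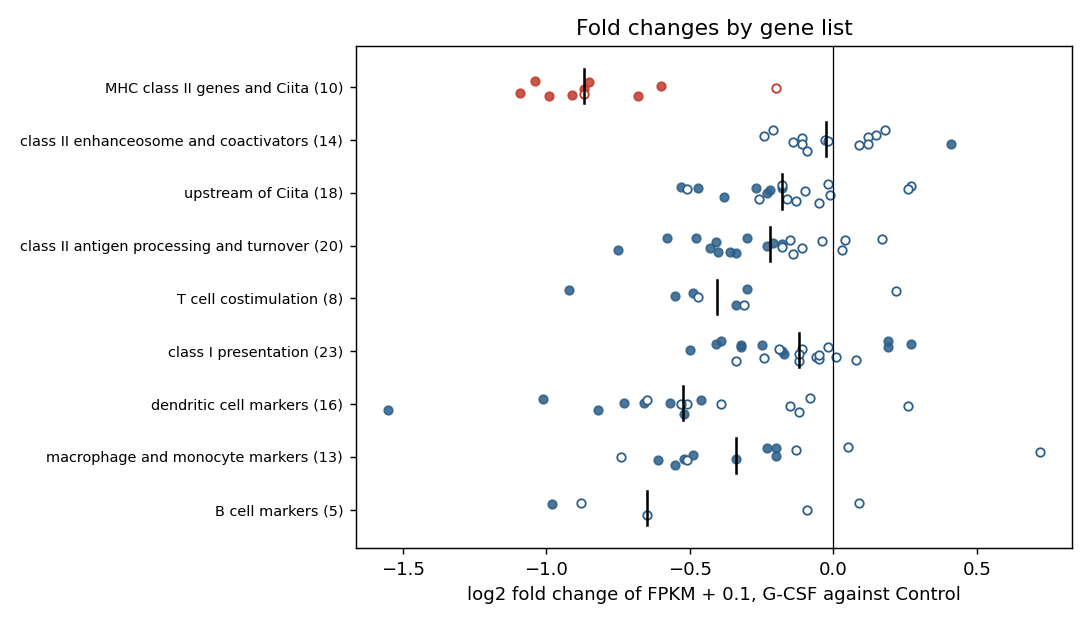
log2 fold changes of G-CSF against Control for the members (red) and the tested genes of 8 other lists (blue), each with the number of genes tested and its median as a black bar. Filled points have an adjusted p under 0.05, and the medians are -0.87 for the members, -0.12 for class I presentation and -0.03 for the enhanceosome and coactivator list.

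Markers of the cell types that express class II were read in the same libraries. In the dendritic cell list, 16 of 19 genes were tested, 8 fell, 0 rose and 8 did not pass, with a median of -0.53, and their summed level was 740 to 849 FPKM in Control and 512 to 591 FPKM with G-CSF. *Cd209a*, a lectin of monocyte-derived dendritic cells, fell from 8.13 and 4.97 FPKM to 2.77 and 1.60 FPKM (log2 fold change -1.55, standard error 0.304, adjusted p = 0.0161). *Mgl2*, another lectin, fell by 0.73 (adjusted p = 0.00303) and *Cd24a* by 0.52 (adjusted p = 0.00524). *Batf3* fell by 0.57 (adjusted p = 0.0123) and *Itgax*, which encodes CD11c, by 0.46 (adjusted p = 0.0403). Of the summed level, *Cd24a* alone gave 293 and 270 FPKM in Control and 206 and 187 FPKM with G-CSF. *Zbtb46* (-0.51, adjusted p = 0.253), *Flt3* (-0.65, adjusted p = 0.221) and *Ccr7* (-0.53, adjusted p = 0.0753) did not pass, and none of the list was at 0 in all libraries.

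In the macrophage and monocyte list, 13 of 13 genes were tested, 8 fell, 0 rose and 5 did not pass (median -0.34, summed level 1947 to 2016 FPKM in Control and 1725 to 1808 FPKM with G-CSF). Among them, *Csf1r*, the receptor of M-CSF, fell by 0.23 (adjusted p = 0.0179) and *Cd68* by 0.20 (adjusted p = 0.0206). Of the 13 log2 fold changes, 11 were below 0. Those above 0 were *Ccr2* (0.05, adjusted p = 0.45 in limma) and *Cx3cr1* (0.72, adjusted p = 0.188), the latter on 5 to 17 estimated reads per library. Of the summed level, *Ly6c2* alone gave 1105 and 1148 FPKM in Control and 999.6 and 1066 FPKM with G-CSF. *Ly6c2* is also in the list of MDSC and neutrophil markers and did not pass (log2 fold change -0.13, adjusted p = 0.146 in limma). B cell markers were near 0: the 12 genes summed to 9.2 to 10.6 FPKM in Control and 7.1 to 8.85 FPKM with G-CSF, and 5 were tested, of which 1 fell, 0 rose and 4 did not pass (median -0.65). *Cd79a* fell from 1.4 and 1.196 FPKM to 0.646 and 0.572 FPKM (log2 fold change -0.98, adjusted p = 0.0175), and *Ms4a1* was at -0.88 (adjusted p = 0.142). *Cd79b*, the most abundant of the 5, was at 0.09 (adjusted p = 0.732), *Cd22* at -0.09 (adjusted p = 0.723) and *Blnk* at -0.65 (adjusted p = 0.0925). The part of these cell types in the change of the class II genes was not tested. For cultures grown the same way, the study reported flow cytometry. The percentages of dendritic cells, macrophages and all MDSCs were unaffected by G-CSF there. The proportion of monocytic MDSCs was larger and that of polymorphonuclear MDSCs smaller. Whether the same cultures were sequenced is not given in the sources used here.

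The genes with the profile most like that of the members were sought by the Euclidean distance between log2(FPKM + 0.1) values over the 4 libraries, each gene centred on its mean, from the median profile of the 10 members. The 5 nearest outside the members were *Pla2g4d* (distance 0.092), *Adam23* (0.0991), *Adam11* (0.105), *P2ry10* (0.111) and *Gbp9* (0.114). *Pla2g4d* had only 5 to 14 estimated reads per library and did not pass the test (adjusted p = 0.115), and at its level of 0.083 to 0.291 FPKM the pseudocount of 0.1 sets much of its profile. *P2ry10*, a receptor for lysophospholipids, stood at 5.55 and 4.79 FPKM in Control and at 2.85 and 2.39 FPKM with G-CSF. *Gbp9*, an interferon-inducible guanylate-binding protein gene, stood at 2.11 and 1.65 FPKM and at 1.15 and 0.934 FPKM. Of the members, *Cd74* was closest (0.0811, with 0 other genes nearer), and *H2-Oa* was farthest (0.854, with 3763 genes nearer). The profile was made from these members, so that their own distances are a description only.

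The libraries held between 12440000 and 15610000 reads, as estimated from the steps between the lowest values, and 14674 to 14890 genes above 0. The labels name liver tissue in the RNA extraction step, while their sample names and the study give *in vitro* MDSCs. Of 10 liver markers, 6, including *Alb*, were listed at 0 in all libraries, and all 10 summed to 2.31 FPKM or less. *Itgam*, which encodes CD11b, a marker that the study used for MDSCs, stood at 520 and 515 FPKM in Control. With G-CSF it stood at 395 and 416 FPKM (log2 fold change -0.35, adjusted p = 0.00565 in limma).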

How the data were processed

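The authors deposited 1 table of FPKM for each of 4 mRNA libraries (TruSeq stranded kit, single-end reads of 75 bases). The submitters' processing notes name TopHat2 2.0.13, Bowtie2 2.2.3, SAMtools 0.1.19, Cufflinks 2.2.1 and the build mm10, and the annotation and strand setting are not given in the sources used here. FPKM already contain the division by length and depth. Reads were estimated from FPKM, the length of GENCODE M21 transcripts less 210 bases, and a library size at which low values fell on whole reads (66.4% to 68.3% of them within 0.05 reads, where chance gives 10.0%). Lengths were found for 23976 of 24346 rows. A gene was tested (11956 were) if it reached 10 estimated reads in any 2 libraries and 15 over the 4, by limma (lmFit, eBayes with trend) on log2(FPKM + 0.1), two-sided, with Benjamini-Hochberg adjustment over all of them. The confidence intervals use limma's moderated variance and cover the spread between libraries. Depth is estimated, so no counting intervals are given.

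The members and the 12 gene lists were chosen with earlier results of these data known, and the lists were written from general knowledge. Named genes were all members, a fixed set of genes per list, up to 3 more of each list with the smallest p among those passing, and the 5 genes of the most alike profile. *Canx*, *Pdia3*, *Elane*, *Itgam*, *Cd79b*, *Cd22*, *Blnk*, *Nkg7*, *Il7r*, *Cd3g*, *March1*, *March8* and *Ly6c2* were named after their values had been seen. So were *Ccr2*, *Cx3cr1*, *Mmp8*, *Ngp* and the genes of the chromosome 17 segment. Of the genes of the lists, those without a row are not analysed here. Some genes that the rule names are not reported here. Motif letters and spacing were set after the promoters had been read. *H2-Ab1*, *Cd74* and *Ciita* were not in the promoter table. Shared windows were counted over both strands of all GENCODE M21 transcripts. Alternatives were other pseudocounts, filters and scalings, limma without the trend, voom, a term for the replicate number, and fits that omit 1 library. Only the main limma fit was tested on simulated data, in which the changes put in were larger than those of the members. The other steps were not tested in this way. The software comprised R 4.3.3 with limma 3.58.1, and python 3.11.15 with matplotlib 3.10.9, pandas 2.3.3 and numpy 2.4.6.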

Additional observations from a re-analysis of the deposited data

How the results depend on the processing

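All 10 members had a negative log2 fold change under each of the 13 alternatives. Of 130 combinations of member and alternative, 118 kept their side of an adjusted p of 0.05, 10 no longer passed, 2 newly passed and 0 reversed. At an adjusted p of 0.05 alone, limma without the trend passed 0 members (8 at an unadjusted p under 0.05). It passed 2 genes of the other lists, against 65 with the trend, and 108 of all genes tested, against 2876. With a fold change over 2 in addition, it called 0 members and 63 genes in all, against 171 with the trend. The cause was not tested. Without a filter, 34 genes of the other lists passed, over 16234 genes tested, and *Ciita* did not (adjusted p = 0.0673). Of all genes, 57 were called with a pseudocount of 1 FPKM, 111 with a mean of at least 1 FPKM and 2876 at an adjusted p under 0.05 alone. When 1 library is omitted, the lone library of its group is assumed to vary like the others. Counts from these fits are therefore a description only, and no share of all genes is set beside them. Between 7 and 9 members then passed, 0 to 5 were lower by over 2-fold (0 without Control replicate 1 or G-CSF replicate 2, 5 without Control replicate 2 or G-CSF replicate 1), 38 to 53 genes of the other lists passed, and the ratio of the summed members was 0.486 to 0.592. The replicate numbers are shared between groups only as numbers. Same-numbered libraries deviated together across genes (r = 0.268, which is across genes and not over independent replicates). With the replicate block in limma, 9 members passed, with *H2-Ob* added (adjusted p = 0.00785), and 83 genes of the other lists passed. The total over all genes at an adjusted p under 0.05 was then 4009, and 186 were called with a fold change over 2 in addition. With upper-quartile scaling, 3 members were lower by over 2-fold and the median of all genes moved to -0.02. Values of *H2-Ob* rest on 28 to 94 estimated reads, which limits its precision.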

Other observations

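In the list of MDSC and neutrophil markers, 14 genes were tested, 8 fell and 2 rose with G-CSF (limma, median log2 fold change -0.38). The genes that rose were *Mpo* (1.52, adjusted p = 0.000129) and *Elane* (0.99, adjusted p = 0.0041), which encode proteins of primary granules. *Camp* (-1.81, adjusted p = 0.00047) and *Ltf* (-1.32, adjusted p = 0.00306), which neutrophils express later in their maturation, fell. Of the other genes of the list, *Ngp* fell less (-0.55, adjusted p = 0.0133). *Mmp8*, at 659 to 811 FPKM, was at -0.10 and was among the 4 that did not pass (adjusted p = 0.47). In the list of T, NK and innate lymphoid markers, 5 genes were tested and 2 fell, *Cd3d* (-1.04, adjusted p = 0.0217) and *Cd8a* (-1.05, adjusted p = 0.025), both at 1.57 FPKM or less in every library. *Nkg7*, a gene of cytotoxic granules, was at 10.4 and 6.99 FPKM in Control and at 15.1 and 10.3 FPKM with G-CSF and did not pass (0.54, adjusted p = 0.132), nor did *Il7r* (-0.18, adjusted p = 0.141) or *Cd3g* (-0.11, adjusted p = 0.812). The list summed to 20.9 to 24.3 FPKM in Control and 21.0 to 26.8 FPKM with G-CSF.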
